A study of Mus musculus with 4 samples.

Results

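Growth hormone acts on the liver through its receptor and the transcription factors STAT5A and STAT5B, and 10 genes of that axis were followed here. They were the receptor gene Ghr, the signal transducers Stat5a and Stat5b, the feedback inhibitors Socs2 and Cish, the endocrine outputs Igf1 and Igfals, and 3 transcription factors tied to sex-dependent growth hormone action in liver, Bcl6, Cux2 and Onecut1. Membership was by gene name: every non-control probe annotated to a RefSeq transcript of a listed gene was taken, which gave 14 probes for 10 of the 23462 genes named on the array. Of these genes, 7 had 1 probe only, and every probe was a single spot on each array.

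The data came from whole liver of male mice, with 1 Agilent 1-colour array (Cy5 label) for each of 4 groups. The control array held liver of naturally aged mice. The diabetic array held liver of aged mice modelled for type 2 diabetes. The metformin array held the same model given metformin, a glucose-lowering biguanide, and the combination array held the model given metformin together with astragalus polysaccharide, a carbohydrate fraction of Astragalus root. The titles carry a time of 60 d whose starting point is not stated. The sources used here do not give the strain, age, drug doses, the way diabetes was induced or whether animals were pooled. All 4 groups were aged mice, so no array stands for young liver, and no array held astragalus polysaccharide alone.

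With 1 array per group, each difference below is between 2 single arrays and has no replicate check. No p-value is given. A level is the log2 signal minus the log2 of the 75th percentile of the array, taken over the 24363 probes measured on all 4 arrays. A difference is centred, which means that the median difference of all genes measured on both arrays was subtracted. That median lay between -0.05 and 0.05 in every comparison. From repeated spots of 1 probe, the technical SD of such a difference was 0.11 in log2. It does not include the spread between mice, RNA preparations or hybridizations. The signal at the 75th percentile was between 6520 (control) and 8095 (metformin), and no spot was saturated. All 11 hepatocyte markers, among them Alb and Apoa1, were above background on each array. Their summed signals were 115, 92.1, 78.1 and 98.5 times the 75th percentile on the control, diabetic, metformin and combination array. In metformin against control their median difference was -0.58, with 8 of 10 measured below 0. The part of this in the values of the members was not tested. Fewer cells of a type and less RNA per cell cannot be told apart in whole liver.

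As background, growth hormone binding to its receptor activates the kinase JAK2, which phosphorylates STAT5, and STAT5 then enters the nucleus and binds sites of the form TTCNNNGAA. Cish and Socs2 are direct STAT5 targets whose products damp the same receptor, so their transcripts are often read as a short-term record of STAT5 activity. Igf1 and Igfals are slower hepatic outputs that together build the circulating IGF1 complex. In rodents the hormone is secreted in pulses in males and more continuously in females, and this pattern sets much of the sex difference in liver gene expression.

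Promoter sequences of 3 members are shown because their genes differ in how they moved on these arrays and because each window holds the STAT5 consensus. They are RefSeq promoters of GRCm38.p6, running from upstream of an annotated start to a little past it, and capitals mark matches to TTCNNNGAA. Cish lies at chr9:107296409-107296708 on the plus strand, this Igfals window at chr17:24877981-24878280 on the plus strand and this Bcl6 window at chr16:23981234-23981533 on the minus strand.
Cish: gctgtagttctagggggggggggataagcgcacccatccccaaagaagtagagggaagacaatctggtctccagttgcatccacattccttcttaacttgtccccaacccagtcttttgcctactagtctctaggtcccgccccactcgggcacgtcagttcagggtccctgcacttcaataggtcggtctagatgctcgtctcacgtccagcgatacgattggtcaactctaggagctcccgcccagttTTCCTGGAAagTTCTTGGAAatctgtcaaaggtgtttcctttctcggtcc
Igfals: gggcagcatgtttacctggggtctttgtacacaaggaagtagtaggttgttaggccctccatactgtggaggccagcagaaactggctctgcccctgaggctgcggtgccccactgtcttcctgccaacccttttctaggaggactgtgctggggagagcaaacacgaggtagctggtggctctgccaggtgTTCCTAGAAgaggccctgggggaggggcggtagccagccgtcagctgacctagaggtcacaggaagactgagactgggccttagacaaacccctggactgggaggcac
Bcl6: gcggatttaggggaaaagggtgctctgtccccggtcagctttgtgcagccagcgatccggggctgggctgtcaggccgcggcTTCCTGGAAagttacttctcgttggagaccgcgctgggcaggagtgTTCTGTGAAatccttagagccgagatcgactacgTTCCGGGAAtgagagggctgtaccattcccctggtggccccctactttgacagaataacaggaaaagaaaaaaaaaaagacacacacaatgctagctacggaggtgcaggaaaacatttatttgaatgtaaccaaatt
The Cish window holds 2 matches, TTCCTGGAA beginning at the start site itself (0) and TTCTTGGAA beginning 11 bases after it. The Igfals window holds TTCCTAGAA at -58, and another annotated Igfals start has TTCTCAGAA at -236. The Bcl6 window holds 3, at -168, -122 and -88, and a further Bcl6 start has 1 at -118. The motif reads the same on both strands. A match occurred in 8.30% of 32851 mouse promoters of this length, and 2 or more matches occurred in 0.457%. In all, 9 members had 16 promoters in the table, and Socs2 had none there. The windows of Ghr, Stat5a, Stat5b, Igf1, Cux2 and Onecut1 held no match to these letters, and nor did a further annotated Igfals start. A match is a description of the sequence and not a site shown to be bound.

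The axis held genes whose mean levels differed by less than 2-fold between any arrays and genes that differed by several fold. Across the 4 arrays, 6 of 10 members spanned at least 2-fold, namely Cish, Cux2, Socs2, Igfals, Onecut1 and Ghr, with Ghr spanning 1.02 in log2 and resting on marked spots for that span. Stat5a, Stat5b, Igf1 and Bcl6 spanned between 0.17 and 0.52. The control array was the highest for 7 members and the combination array for 3 (Bcl6, Cux2 and Stat5b). The diabetic array was the lowest for 4 members, the metformin array for 3, the control array for 2 (Bcl6 and Cux2) and the combination array for 1 (Igfals). These ranks use all spots, marked ones included, and several rest on gaps within 2 technical SD. Metformin lay below diabetic by 0.001 for Stat5b and 0.08 for Igf1, and combination above control by 0.03 for Stat5b. The 2 Stat5a probes had different highest arrays, and the control spot of Onecut1 was marked. Exocrine pancreas markers also differed between these liver samples, with 12, 12, 12 and 6 of 13 above background and summed signals of 36.0, 4.63, 9.11 and 2.33 times the 75th percentile on the control, diabetic, metformin and combination array. They were highest on the control array, as were 7 members, and their part in the values of the members was not tested.

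**Figure D1:**
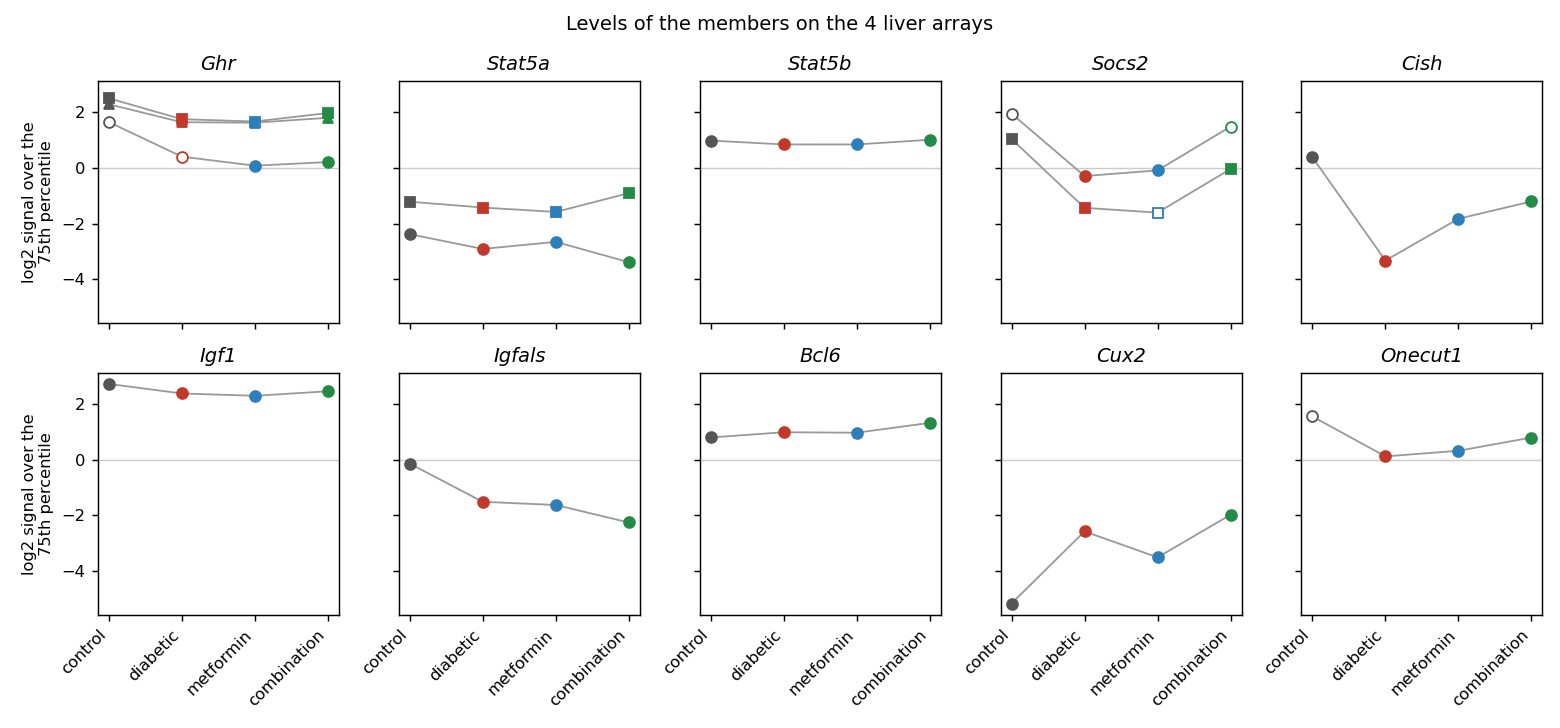
Levels of the 10 members, as log2 signal over the 75th percentile of the array, on the arrays named on the axis. Each line is 1 probe, and open points are spots the scanner software marked as outliers. Cish runs from 0.38 to -3.33, Cux2 from -5.16 to -1.97, and Stat5b and Igf1 lie almost flat.

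In the diabetic against control comparison, 9 members were measured, of which 3 were at least 2-fold lower and 1 was higher by as much. The genes at least 2-fold lower were Cish, Socs2 and Igfals, and the higher one was Cux2. Over all 13475 genes with a value, 4.53% were lower and 7.45% higher by that much. The median of the members was -0.32 against 0 for all genes.

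Cish encodes CIS, an SH2-domain protein that STAT5 induces and that competes for docking sites on cytokine receptors. In the order control, diabetic, metformin and combination, which is kept below, its signals were 8486, 730, 2285 and 3455. The corresponding levels were 0.38, -3.33, -1.82 and -1.20, so every treated or untreated diabetic liver lay below the control, and the diabetic array lay furthest below. Each step in the order control, combination, metformin, diabetic was larger than 2 technical SD. The diabetic array was 12.6-fold lower than control (-3.65). The metformin array was 2.78-fold above the diabetic array (1.48) and the combination array 4.20-fold above it (2.07), and both remained below control, by -2.21 and -1.58. These comparisons share the diabetic array, so a low value there alone raises both treated differences.

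Socs2 encodes a suppressor of cytokine signalling that limits growth hormone action, and mice lacking it grow larger than normal. Its probe without a mark on the control array had levels of 1.04, -1.43 and -0.04 on the control, diabetic and combination arrays, and -1.61 on the metformin array at a spot marked as an outlier. The second probe had -0.29 and -0.09 on the diabetic and metformin arrays, and 1.95 and 1.49 at marked spots on the control and combination arrays. Both probes therefore placed the diabetic and metformin arrays low and the control and combination arrays high. The diabetic array was 5.37-fold lower than control (-2.42), and the combination array was 2.54-fold above the diabetic array (1.35). The metformin array differed from the diabetic array by 0.18 on the unmarked probe. With outlier marks ignored, the mean of both probes gave -2.31 for diabetic against control, -0.01 for metformin against diabetic and 1.53 for combination against diabetic. For combination against control the unmarked probe gave -1.08 and the mean of both, marks ignored, -0.78, which is under 2-fold. Cish and Socs2 therefore parted on the metformin array, where Cish was above its diabetic level and Socs2 was close to it.

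Igfals encodes the acid-labile subunit, a liver-made protein that holds IGF1 and IGFBP3 in a long-lived complex in blood. Its signals were 5933, 2577, 2630 and 1670, which are levels of -0.14, -1.51, -1.62 and -2.25. The 3 diabetic livers all lay below the control, and the combination array lay lowest. The diabetic and metformin arrays lay within 2 technical SD of each other. The diabetic array was 2.50-fold lower than control (-1.32) and the combination array 4.34-fold lower (-2.12). Against the diabetic array the combination array was a further -0.80 apart, so Igfals went the other way from Cish and Socs2 on that array.

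Igf1 encodes the growth factor that mediates much of the systemic action of growth hormone. Its levels were 2.73, 2.39, 2.30 and 2.47. The control array was the highest, and the other arrays lay 0.27 to 0.43 below it after centring, with neighbours in the order combination, diabetic, metformin within 2 technical SD. The diabetic against control difference of -0.29 was smaller in size than the median absolute difference of all genes in that comparison, 0.32. Igf1 and Igfals, which supply the same complex, thus differed in how far their measured signals moved. Their probes lay at different parts of the signal scale. Across the arrays the Igf1 probe was at signal percentiles of 97.2 to 97.9, and the Igfals probe at 52.2 to 74.3. No spot was saturated, but whether signals as bright as those of Igf1 understate differences was not tested.

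Averaged over unmarked probes, the receptor and its transducers differed by less than 2-fold in each comparison, although 1 Stat5a probe reached -1.01 between combination and control. For Ghr against control, that average holds no probe of the transcript NM_010284. Ghr had 2 unmarked probes for the transcript NM_001048178, with levels of 2.50, 1.75, 1.67 and 1.97 for one and 2.29, 1.64, 1.63 and 1.80 for the other. The control array was highest on both, and the diabetic and metformin arrays lay within 2 technical SD of each other. The diabetic array was 1.57-fold lower than control on their mean (-0.65), and both treated arrays lay within 0.14 of the diabetic array. The remaining probe, for the transcript NM_010284, differed by -1.19 between diabetic and control, at spots marked on both arrays. Stat5b, the main STAT5 form in liver, had levels of 0.98, 0.85, 0.84 and 1.01. No neighbouring levels in its order differed by more than 2 technical SD, and its diabetic against control difference was -0.09. Stat5a, its close paralog, had levels of -2.38, -2.91, -2.66 and -3.39 on one probe and -1.21, -1.42, -1.58 and -0.91 on the other. Their mean differed by -0.32 between diabetic and control. Its 2 probes disagreed on the combination array, where one differed from the diabetic array by -0.53 and the other by 0.46, so its mean of -0.03 there stands for no agreement between them. These are transcript levels and carry no measure of STAT5 phosphorylation.

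The transcription factors tied to sex-dependent expression differed from one another. Cux2 encodes a homeodomain repressor that is normally expressed in female rather than male mouse liver and that continuous growth hormone induces. Its signals were 182, 1233, 713 and 2026, or levels of -5.16, -2.57, -3.50 and -1.97. The control array was lowest, close to the dimmest probes above background there (-5.79), and the 3 diabetic livers all lay above it. Each step in the order control, metformin, diabetic, combination was larger than 2 technical SD. The diabetic array was 6.25-fold above control (2.64) and the combination array 9.13-fold above it (3.19). The metformin array was 1.94-fold below the diabetic array (-0.96) and the combination array 2.94-fold above the metformin array (1.55). Bcl6 encodes a zinc-finger repressor that binds STAT5-type sites and is higher in male than in female mouse liver. Its levels were 0.80, 0.99, 0.98 and 1.33, with the combination array highest by more than 2 technical SD and the other neighbours within it, and its largest difference was 0.52 for combination against control. Onecut1, also called HNF6, encodes a homeobox factor of liver and bile duct. Its levels on the diabetic, metformin and combination arrays were 0.12, 0.33 and 0.80. Its control spot was marked as an outlier, and with that spot kept the diabetic array lay -1.38 from control.

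**Figure D2:**
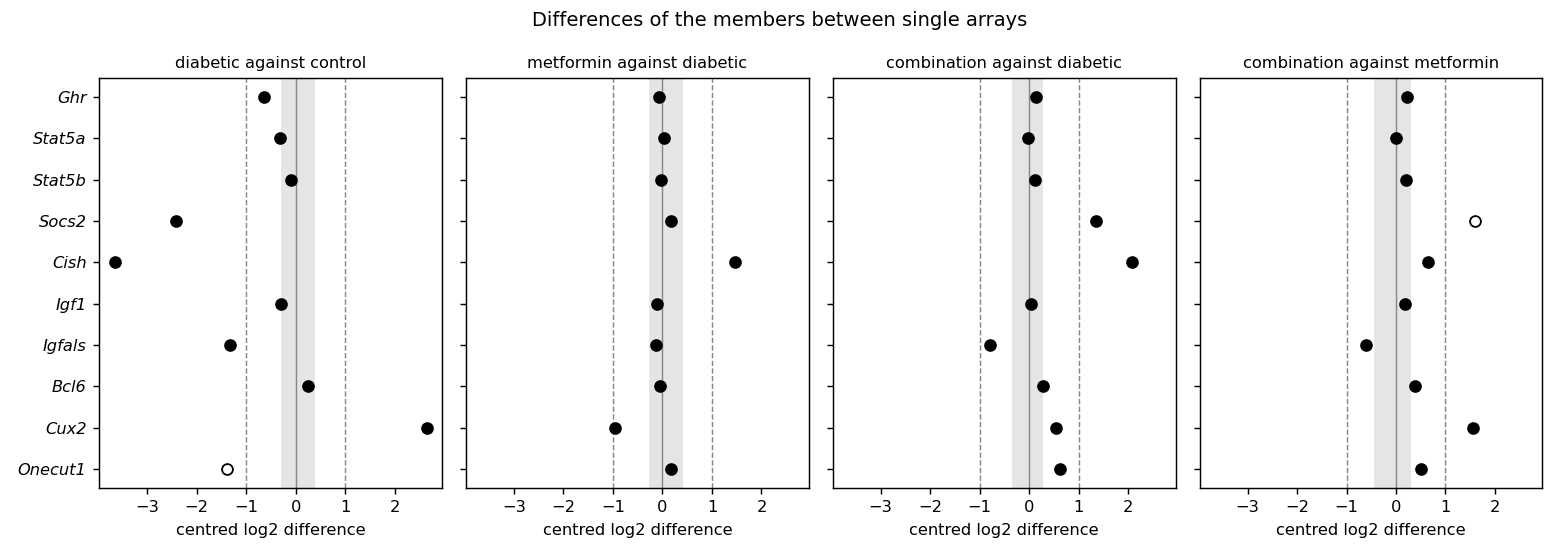
Centred log2 differences of the 10 members in the 4 main comparisons. Grey bands run from the lower to the upper quartile of all genes, dashed lines mark 2-fold, and open points rest on a spot marked as an outlier. Cish and Socs2 lie far left in diabetic against control, and Cish lies right of the 2-fold line in both comparisons of a treated array with the diabetic array.

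In the metformin against diabetic comparison all 10 members were measured, and Cish alone was at least 2-fold higher while none was 2-fold lower. Over 13900 genes, 10.4% were higher and 2.68% lower by that much, and the median of the members was -0.04. In the combination against diabetic comparison, Cish and Socs2 were at least 2-fold higher and none was 2-fold lower. Over 14108 genes, 3.51% were higher and 6.31% lower by that much, and the median of the members was 0.21. In the combination against metformin comparison 9 members were measured, Cux2 was at least 2-fold higher, and the median was 0.23. Over 14363 genes, 1.80% were higher and 10.2% lower by that much. Against control, the combination array had 3 of 9 members at least 2-fold lower (Cish, Socs2 and Igfals) and Cux2 higher, beside 5.09% of 13845 genes lower and 5.61% higher. The metformin array had 2 of 8 members at least 2-fold below control (Cish and Igfals) and Cux2 above, beside 3.57% and 11.0% of 13506 genes. With outlier spots kept, 5 of 10 members were at least 2-fold lower there, with Socs2 (-2.35), Onecut1 (-1.24) and Ghr (-1.03) added, and on the combination array 2 of 10 were, without Socs2. These comparisons share arrays and are not independent.

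Socs1 and Socs3, relatives of Socs2 and Cish, were also lower on the diabetic array than on control. Socs3, which damps signalling by interleukin 6 and leptin receptors, differed by -2.55 between diabetic and control, 1.13 between metformin and diabetic and 0.55 between combination and diabetic. Socs1, an inhibitor of JAK kinases, differed by -1.86, 0.82 and -0.35 in the same comparisons. Transcripts of immediate early genes, a class induced quickly by many stimuli, were also lower on the diabetic array than on control. Of 11 measured, 5 were at least 2-fold lower in diabetic against control, 7 at least 2-fold higher in metformin against diabetic and 3 in combination against diabetic. The same shares over all genes were 4.53%, 10.4% and 3.51%. The medians of the immediate early genes were -0.96, 1.72 and 0.59. Egr1, a member of that list, differed by -3.55 between diabetic and control, where Cish differed by -3.65. The levels of Egr1 were -0.38, -3.98, -1.02 and -3.07. Egr1 was thus higher on the metformin than on the combination array, while Cish was lower on the metformin array (-1.82 and -1.20). Of 10 lymphocyte markers measured, 5 were at least 2-fold lower on the diabetic array than on control. Their summed signal was lowest on the diabetic array, against 2.08 times the 75th percentile on control, 3.35 on metformin and 1.34 on combination. Elsewhere they parted from Cish. In metformin against control their median was 1.15, with 6 of 11 at least 2-fold higher and 1 lower, beside 11.0% and 3.57% of all genes, and Cish was -2.21. In combination against metformin their median was -1.76, with 9 of 11 at least 2-fold lower. The part of either list in the values of Cish and Socs2 was not tested.

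**Figure D3:**
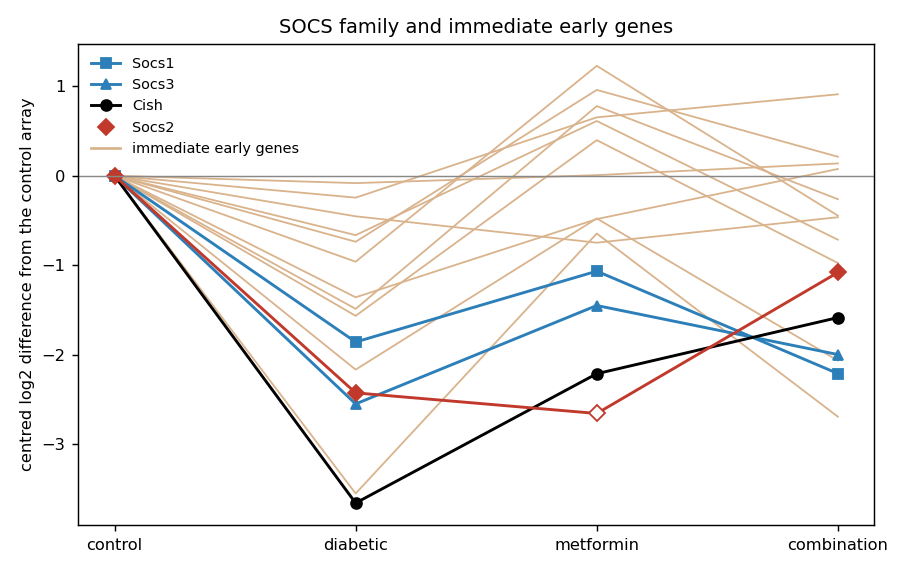
Centred log2 differences from the control array for Cish, Socs2, Socs1, Socs3 and 11 immediate early genes, shown as thin lines. The open Socs2 point rests on a marked spot. Cish, Socs2, Socs1 and Socs3 lie below the control on every other array.

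A further list of 17 genes, named here for growth hormone receptor signalling, also held the genes of other receptors, Prlr, Lepr and Egfr. Of the list, 16 were measured in diabetic against control, with a median of -0.23. Of these, 3 were at least 2-fold lower (Socs1, Socs3 and Egfr), beside 4.53% of all genes. Lepr alone was at least 2-fold higher, 1 of 16, which is near the 7.45% of all genes. Egfr, the epidermal growth factor receptor, whose liver level depends on growth hormone in mice, differed by -2.16 on the mean of 3 probes that ranged from -3.39 to -1.25. It remained low on both treated arrays, at -2.89 and -1.96 from control. Lepr, the leptin receptor, was 4.01-fold above control on the diabetic array, 16.2-fold lower on the metformin than on the diabetic array and 2.25-fold lower on the combination than on the diabetic array. Jak2, the kinase of the growth hormone receptor, differed by -0.76 between diabetic and control and by 0.63 between combination and diabetic. Prlr, the related prolactin receptor, differed by 0.33 between diabetic and control, the mean of 3 probes that ranged from -0.06 to 0.98. In combination against diabetic, 3 of 17 were at least 2-fold lower, beside 6.31% of all genes. They were Lepr, Sirpa (-1.20), an inhibitory receptor of macrophages, and Ptpn6 (-1.04), a phosphatase abundant in blood cells. The summed signal of Kupffer cell markers was 29.7, 20.3, 27.8 and 17.8 times the 75th percentile, so it too was lower on the combination than on the diabetic array. Between diabetic and control, where that sum was also lower, Ptpn6 differed by 0.36 and Sirpa by -0.14. The part of those cells in the values was not tested.

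In the IGF system, 10 of 14 genes were measured in diabetic against control, with a median of -0.49. Beside 4.53% lower and 7.45% higher of all genes, 2 of 10 were at least 2-fold lower and none was at least 2-fold higher. The lower ones were Igfbp3, the binding protein of the circulating complex (-1.01), and Htra1, a protease that cleaves IGF binding proteins (-1.45). In metformin against diabetic, 5 of 11 were at least 2-fold higher, beside 10.4% of all genes. They were Igf2 (3.66), Htra1 (1.85), Igfbp6 (1.71), Igfbp5 (1.59) and Igfbp3 (1.44). In combination against diabetic, 2 of 11 were at least 2-fold higher, Igf2 (1.72) and Htra1 (1.34), beside 3.51% of all genes. Igf2, a growth factor of fetal liver, was not well above background on the control array and was at least 3.83-fold higher on the diabetic array, a bound against the higher of its own dim value and the dimmest signal measured above background. Igfbp1, an insulin-repressed binding protein made by hepatocytes, differed by -0.79, -0.01 and 0.44 in diabetic against control, metformin against diabetic and combination against diabetic. Stellate and matrix markers, cells in which several IGF binding proteins are expressed, had summed signals of 15.5, 9.49, 18.1 and 12.9 times the 75th percentile. The part of those cells in the binding protein values was not tested.

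Genes that differ between male and female liver, many of which depend on growth hormone and STAT5B, lay in opposite directions in these male livers. Over all genes in diabetic against control, 4.53% were at least 2-fold lower and 7.45% higher. Of 20 male-biased genes, 12 were measured there, with 4 at least 2-fold lower, 1 at least 2-fold higher and a median of -0.67. Slco1a1, an organic anion transporter of male liver, was 38.1-fold lower, and Elovl3, a fatty acid elongase, was 8.72-fold lower. Susd4, a complement regulator, was 3.87-fold higher. Hsd3b5, a male-specific steroid reductase, was above background on the control array and not on the diabetic array, and was at least 169-fold lower there. Of 32 female-biased genes, 19 were measured, with 12 at least 2-fold higher, 1 at least 2-fold lower and a median of 1.20. Cyp17a1, a steroid hydroxylase, was 40.2-fold higher, Cyp4a14, a fatty acid hydroxylase that PPAR-alpha also induces, was 28.1-fold higher and Slc22a27, an organic anion transporter, was 15.3-fold higher. The sulfotransferases Sult2a2, Sult2a3 and Sult2a5 were not above background on the control array and were at least 18.4-fold, 4.85-fold and 4.38-fold higher on the diabetic array. Probes of the Sult2a, Sult3a and Cyp4a12 families may bind transcripts of near-identical relatives, so their members are not independent.

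On both treated arrays, each list kept the sign of its diabetic against control median. All 3 arrays were set against the same control array. Against control, the male-biased median was -0.73 on the metformin array and -0.87 on the combination array, and the female-biased median was 1.45 and 2.07. Of the female-biased genes measured against control, 12 of 19 were at least 2-fold higher on the metformin array, where 11.0% of all genes were. On the combination array 15 of 20 were, beside 5.61% of all genes. In metformin against diabetic, 8 of 21 female-biased genes were at least 2-fold higher and none lower, beside 10.4% and 2.68% of all genes. The higher ones included Hao2 (4.19), a hydroxyacid oxidase, and Atp6v0d2 (3.34), a proton pump subunit. Sult3a1, Sult3a2 and Sult2a6 were above background on the metformin but not on the diabetic array, at least 62.6-fold, 34.2-fold and 6.01-fold higher. Among male-biased genes in that comparison, Ihh, a hedgehog ligand, differed by 2.27, Cyp2u1 by -1.10 and Elovl3 by 1.07. In combination against diabetic, 10 of 23 female-biased genes were at least 2-fold higher and none lower, beside 3.51% and 6.31% of all genes. The higher ones included Sult2a3 (4.13) and Sult2a5 (3.93), with bounds of at least 22.3-fold for Sult3a1 and 5.66-fold for Sult3a2. There 5 of 13 male-biased genes were at least 2-fold lower, led by Susd4 (-2.68), C6 (-1.52), a complement component, and Cyp4a12a (-1.30), an arachidonic acid hydroxylase. In combination against metformin, 7 of 16 male-biased genes were at least 2-fold lower, led by Susd4 (-2.56), Elovl3 (-2.10) and Cyp4a12b (-2.01), beside 10.2% of all genes. The female-biased list was mixed there, with 4 of 24 at least 2-fold higher and 6 lower, beside 1.80% and 10.2% of all genes. Hao2 (-3.48) and Sult3a2 (-2.55) were lower and Fmo2 (1.62), a monooxygenase, was higher. The level of Cux2 and the median of the female-biased list against control were both highest on the combination array, while on the metformin array Cux2 lay below its diabetic level (-0.96) and the list's median in metformin against diabetic was 0.60.

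**Figure D4:**
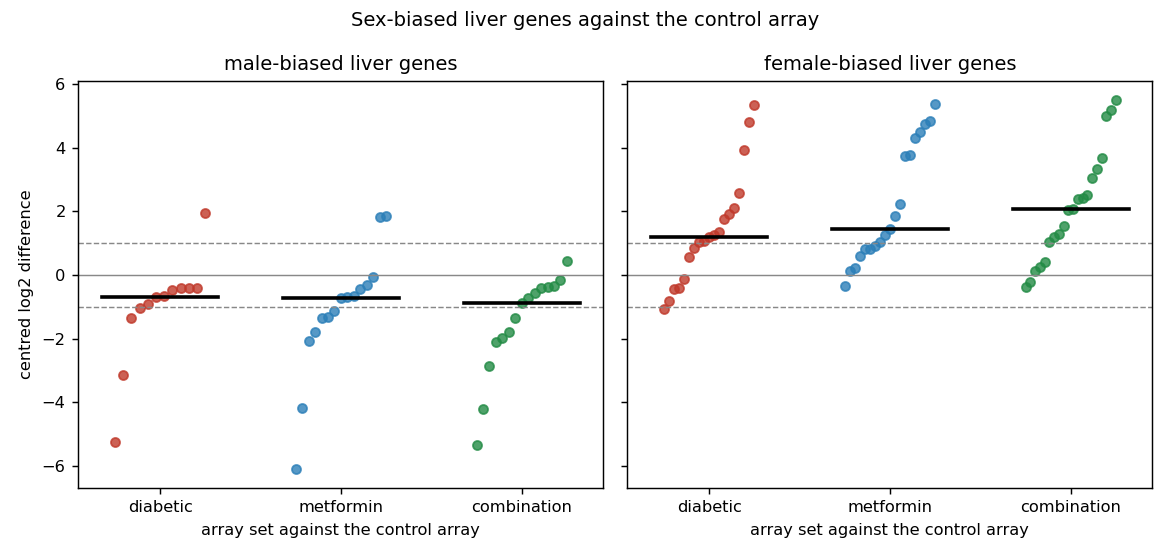
Centred log2 differences from the control array for male-biased genes and female-biased genes on the diabetic, metformin and combination arrays. Each point is 1 gene measured on both arrays, bars are medians and dashed lines mark 2-fold. Medians are -0.67, -0.73 and -0.87 for male-biased genes and 1.20, 1.45 and 2.07 for female-biased genes.

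Genes known to be raised in livers without growth hormone signalling, which become fatty, were higher on the diabetic array in part. Of 5 measured, 2 were at least 2-fold higher in diabetic against control, beside 7.45% of all genes. They were Mogat1, a triglyceride-building acyltransferase (3.51), and Lpl, lipoprotein lipase (1.04). Cidec, a lipid droplet protein, differed by 0.35 there and by -1.93 in combination against diabetic. In metformin against diabetic Mogat1 (1.44) and Lpl (1.16) were again higher, and in combination against metformin Cidec (-1.93), Lpl (-1.49) and Mogat1 (-1.31) were lower. Of 12 hepatocyte nuclear factors, Foxa3, a forkhead factor, was at least 2-fold lower in diabetic against control (-1.17). Another was at least 2-fold higher, and the median of the list was -0.04. Over all genes, 4.53% were lower and 7.45% higher by that much.

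For members measured on all 4 arrays and spanning at least 2-fold, the genes with the most similar pattern were found by the largest gap between mean-centred levels over the 4 arrays, among 11655 genes. Nearest to Cish were Wsb1, a SOCS-box protein (0.27), Slc4a1, the erythrocyte anion exchanger (0.52), and Tnfrsf1b, a receptor for tumour necrosis factor on leukocytes (0.55). Only Wsb1 lay within 0.5. Summed erythroid markers, a list that holds Slc4a1, were 22.4, 15.2, 17.1 and 19.8 times the 75th percentile. Nearest to Cux2 were Etnppl, a phosphoethanolamine lyase (0.20), Mybph (0.51) and Slco1a4, an organic anion transporter (0.53). Nearest to Igfals were B4galt1, a galactosyltransferase (0.09), Psph, a serine synthesis enzyme (0.19), and Hcn3 (0.20), with 81 genes within 0.5. Igfals spanned less than Cish or Cux2, so a window of 0.5 is wider relative to its pattern. Each pattern has 4 points from the same arrays.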

How the data were processed

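Total RNA of whole liver was hybridized to Agilent 1-colour arrays, 1 per group. The deposited scanner files hold the intensity of each spot after background subtraction by the scanner software. Per the file headers this was Feature Extraction 11.5.1.1 with an mm9 grid, and version 10.7 is named in the submitters' processing notes. The authors' deposited value table holds log2 values made in GeneSpring, per the labels' protocols, with an unstated normalization and the same median of 7.84 in each column. It correlated at 0.999 to 1.00 with the log2 signals of the same arrays and served as an alternative. Its calls were almost those of quantile normalization, with 828 genes higher and 690 lower in diabetic against control under both.

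Spots marked as feature outliers (2.18% to 5.35% per array) were dropped. The written plan also named marks on a spot's local background, which covered 41.1% to 46.5% of spots, so dropping those became an alternative. A probe was taken as above background if 50% or more of its spots carried that mark. Probes were named through RefSeq accessions of GRCm38.p6 (33767 of 56605). Probes above background on both arrays were averaged per gene. A gene dim on 1 array has a bound only, the bright level against the higher of its own dim value and the lowest signal above background. Marker sums use all spots. The computation of differences was checked on simulated data. Python 3.11.15, numpy 2.4.6, pandas 2.3.3, R 4.3.3 and limma 3.58.1 were used.

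Members and lists were chosen with earlier results of these data known. All 10 members are named; of the pathway lists, genes at least 2-fold apart in a main comparison plus Jak2, Prlr, Igfbp1 and Igfbp3; of the sex-biased lists, the 3 furthest per main comparison and those with a bound of at least 4-fold. Some genes that this rule names are not reported here. Egr1 was chosen after its values were seen. The number of arrays, 1 per group, limits the precision.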

Additional observations from a re-analysis of the deposited data

How the results depend on the processing

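The counts and medians of the members were recomputed under 12 other settings and 1 more chosen after seeing the data. Of 156 values, 141 stayed close to those reported, 15 moved and 0 were labelled reversed. That label does not cover every change of sign, since 0 of 675 single member differences carried it and some changed sign. The metformin against diabetic median of the members, -0.04, was smaller in size than the technical SD, and its sign is not settled. Settings with another scaling constant could not move any of them. Quantile normalization and the authors' table gave almost the same calls, so they are not separate checks. Single member differences moved by more than the technical SD in 80 of 675 cases and list medians in 48 of 312. Some differences of Stat5a, Igf1, Ghr, Bcl6, Socs2 and Stat5b changed sign under a setting. For Stat5a in combination against control, the value reported was -0.35 and the highest was 0.31. Of 24 list medians, 7 changed sign under some setting; among those reported, with background marks also dropped the diabetic against control medians were 0.15 for growth hormone receptor signalling, 0.09 for the IGF system and 0.06 for hepatocyte nuclear factors. The female-biased median in diabetic against control ranged from 1.03 to 1.40 and the male-biased median from -0.90 to -0.44. With outlier spots kept, 5 of 10 members were at least 2-fold lower in metformin against control in place of 2 of 8, the call of Socs2 in combination against control was lost (-0.78), the diabetic against control median was -0.57 and 2 members, Cux2 and Socs2, were at least 2-fold higher in combination against metformin. In metformin against diabetic, quantile normalization and the authors' table each put 1 member, Cux2, at least 2-fold lower, and both gave a combination against metformin median of 0.10. With only probes above background on all 4 arrays, 1 member was at least 2-fold higher in combination against diabetic, since Socs2 then has no probe. With the brightest probe of each gene, the medians were 0.38 in combination against diabetic and 0.38 in combination against metformin. With background marks also dropped, only 3 or 4 members were left: diabetic against control had 0 higher and a median of -0.98, combination against diabetic 1 higher and a median of 0.47, and combination against metformin 0 higher and a median of 0.40. Fewer measured members account for those counts by construction.

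Of all genes, quantile normalization called 407 higher and 1269 lower in combination against metformin (259 and 1470 as reported) and 1130 higher and 711 lower in metformin against control (1491 and 482, so the share of lower calls was 38.6% in place of 24.4%); the authors' table gave 407 and 1270, and 1130 and 710. Normexp, run on median spot signals, called 515 higher and 541 lower in combination against control (777 and 705). Without the background filter 2290 were higher and 1102 lower in diabetic against control (1004 and 610), 3138 and 665 in metformin against diabetic (1448 and 373), 1247 and 1285 in combination against diabetic (495 and 890; lower share 50.8% in place of 64.3%), 561 and 2939 in combination against metformin (259 and 1470), 3708 and 864 in metformin against control (1491 and 482), and 2149 and 1144 in combination against control (777 and 705; lower share 34.7% in place of 47.6%). With background marks also dropped, the counts in those comparisons were 550 and 339, 844 and 220, 294 and 494, 188 and 787, 781 and 285, and 409 and 356. Another scaling constant cannot change a centred difference, by construction. No paired analysis was possible because each group has 1 array, and leaving out an array leaves no comparison.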
